A study of Mus musculus with 2 samples.

Results

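The cadherin genes followed here across the cell classes of the fetal mouse eye were *Cdh1*, *Cdh2*, *Cdh3*, *Cdh4*, *Cdh5*, *Cdh6*, *Cdh11*, *Cdh13* and *Cdh20*. They were chosen by symbol and are 9 of the 32285 genes in the count matrices, and each symbol matched 1 gene. Eye cups were taken at E17.5 and made into 2 single-cell RNA libraries, 1 from *Myrf* humWT/humWT mice and 1 from *Myrf* humdG/humdG mice, each made from 3 pooled eye cups according to the labels. The study's methods instead give 3 mice per genotype and count both eyes of each. In both alleles the last mouse exon of *Myrf*, which encodes a transcription factor of the retinal pigment epithelium (RPE), was replaced by its human counterpart, and the humdG copy also carries a frameshift in the C-terminal end of the protein. The humWT/humWT mice are therefore a humanized control and not unmodified mice, and the alleles were made in C57BL/6J eggs. The labels state that cornea, lens and optic nerve were removed, whereas the study's methods leave the cornea in the dissected cup. Each genotype is 1 library, so differences between genotypes have no replicate error, and no test or p-value is given for them.

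Classical cadherins are calcium-dependent adhesion proteins that bind the same cadherin on a neighbouring cell and are tied to actin inside the cell by β-catenin, α-catenin and p120 catenin. Cells that carry different cadherins tend to sort apart, and a change of cadherin accompanies many steps in which a tissue layer forms or loosens. Type I members (*Cdh1*, *Cdh2*, *Cdh3*, *Cdh4*; E-, N-, P- and R-cadherin) are the textbook cadherins of epithelia and neural tissue. Type II members (*Cdh5*, *Cdh6*, *Cdh11*, *Cdh20*) include VE-cadherin of blood vessels and the mesenchymal *Cdh11*. *Cdh13* (T-cadherin) is held to the membrane by a GPI anchor and has no cytoplasmic tail, so it stands in this list as a relative and not as a classical cadherin in the strict sense. In people, loss of *CDH3* causes a juvenile macular dystrophy with sparse hair.

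The subfamilies differ in their gene sequences. Cadherins are made as precursors, and cutting after a run of basic residues exposes the end that docks into the partner molecule through 1 tryptophan in type I and 2 in type II members. The first 30 coding bases after that cut are shown here from the GENCODE M21 transcripts of GRCm38, 5′ to 3′ on the coding strand, with tryptophan codons (TGG) in capitals, because they show in letters which members pair by which docking residues. They are reference sequences and were not measured in these libraries. All lie in coding exons. Each window was located by searching for residues typical of its subfamily, which for types I and II include the tryptophans. The TGG codons shown are therefore an illustration and no test of the subfamily. A basic site stood directly before each window. The windows of *Cdh1* (chr8:106653582-106653611, plus strand, exon 4), *Cdh3* (chr8:106536618-106536647, plus strand, exon 4) and *Cdh4* (chr2:179797560-179797589, plus strand, exon 4) hold 1 TGG. No sequence is printed for *Cdh2*.
Cdh1: gacTGGgtcatccctcccatcagctgcccc
Cdh3: gagTGGgtgatgccaccaatattcgtcccc
Cdh4: gacTGGgtcatcccacccatcaacgttccc
The windows of *Cdh5* (chr8:104113034-104113063, plus strand, exon 2), *Cdh6* (chr15:13091689-13091718, minus strand, exon 2), *Cdh11* (chr8:102679651-102679680, minus strand, exon 3) and *Cdh20* (chr1:104934274-104934303, plus strand, exon 2) hold 2.
Cdh5: gacTGGattTGGaatcaaatgcacatcgat
Cdh6: agtTGGatgTGGaatcagttcttcctcctg
Cdh11: ggcTGGgtcTGGaaccaattctttgtgata
Cdh20: agcTGGgttTGGaatcagttttttgtcctg
The window of *Cdh13* (chr8:118757416-118757445, plus strand, exon 4) holds 0.
Cdh13: tccattgtggtgtcccccatcttgatccca
Of the members, 5 lie on chromosome 8, and *Cdh3* and *Cdh1* are neighbours there on the same strand, with 46053 bases between the end of *Cdh3* and the start of *Cdh1*.

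After filtering, 16166 humWT and 18173 humdG cells remained, with a median of 3785 and 2625 UMIs (molecules counted once by their barcode), and 102 cell barcodes occurred in both libraries. The cells fell into 24 clusters, of which 18 were named into 14 classes from fixed marker genes. The members were not among the variable genes used for clustering, and none was a marker. They could take a place among a cluster's leading genes, which the naming rule uses. Cells of unnamed clusters made up 35.0% of the humWT and 51.9% of the humdG cells. The RPE-like cluster (490 humWT and 382 humdG cells) had 7 of its 10 markers and also 4 melanocyte markers raised, and was led by *Ttr*, *Ptgds* and *Slc16a8*. *Myrf* itself stood at 292 CPM (the UMIs of a gene per 1000000 UMIs of the class) in humWT and 201 CPM in humdG RPE-like cells, and at 6.98 and 2.68 CPM in red blood cell-like cells. The frameshift itself cannot be read from these counts, and where in the transcript the *Myrf* reads lie was not examined. Values in red blood cell-like cells, which are filled with globin message, are given throughout as a reference for the background of free RNA in the droplets. Red blood cell markers made up 468374 CPM there in humWT and 570740 CPM in humdG. They lower the CPM of all other genes in that class, more in humdG, so this reference can read too low. No correction was made for it. Early red cell precursors are known to carry E-cadherin, so for *Cdh1* this reference is less clean.

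Each member had a highest class, and the 9 members divided among 8 of the 14 classes. Levels are compared only for the same gene between classes and libraries, never between genes. For 8 members the counting intervals of that class and the next named class did not overlap in either library. An unnamed cluster was higher than every named class for *Cdh3* and *Cdh11* in both libraries, and for *Cdh2*, *Cdh4* and *Cdh20* in humdG. For *Cdh4* the order of the first classes differed between the libraries.

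**Figure D1:**
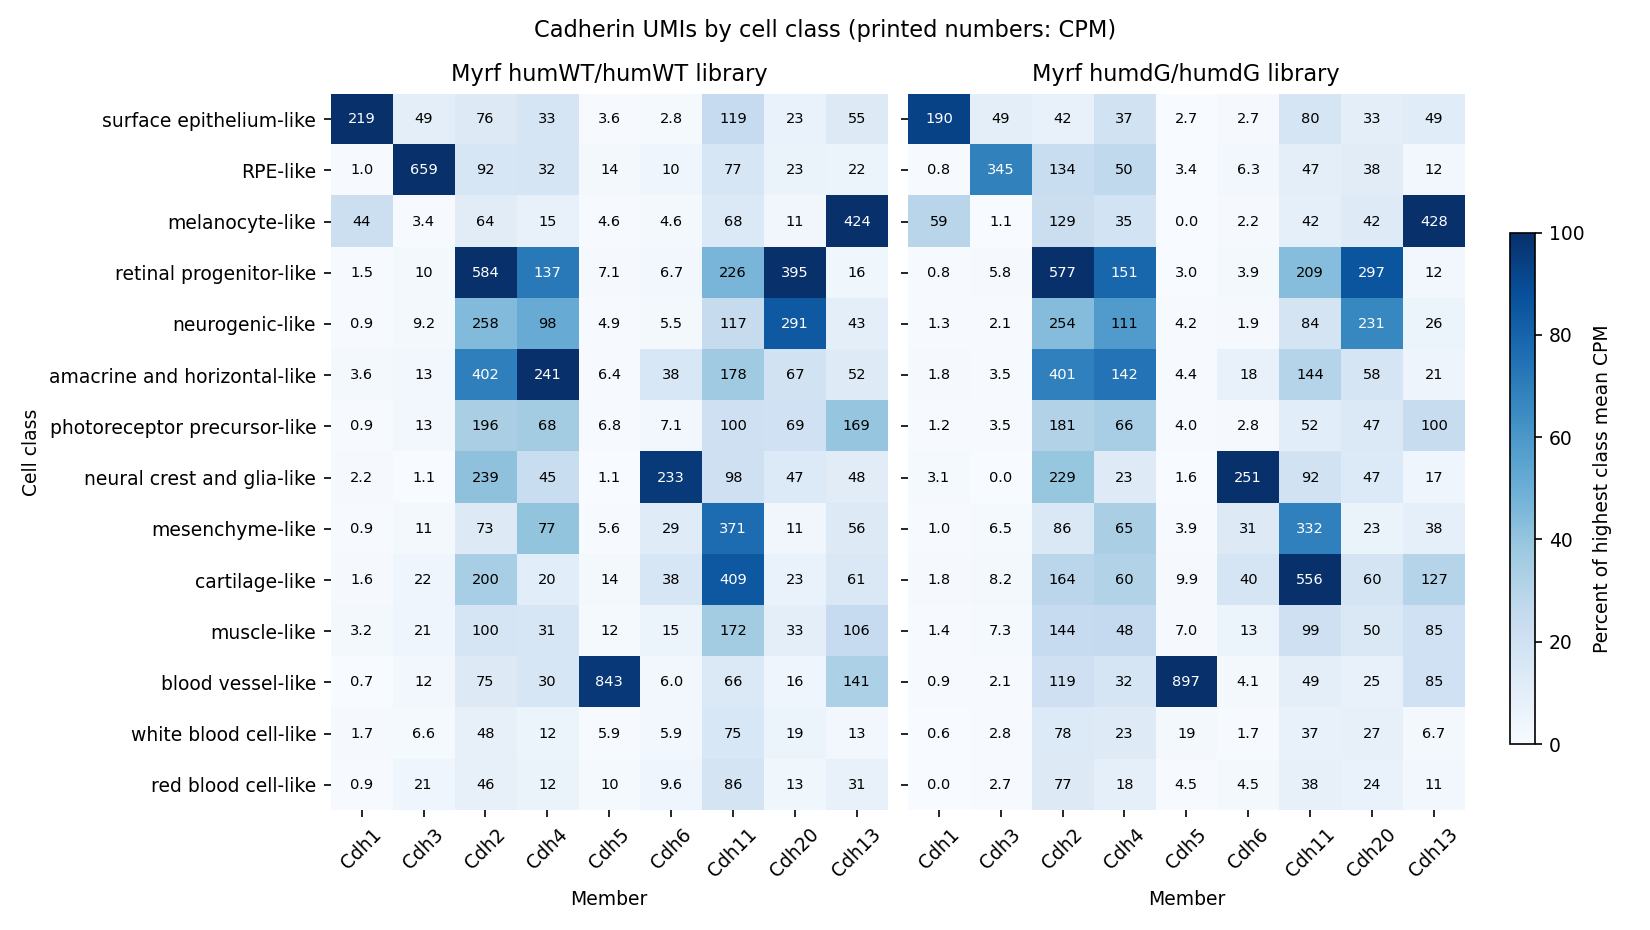
Level of each cadherin (columns) in each named cell class (rows) in the humWT and humdG libraries, printed as CPM; the shade is the percent of the member's highest class, taken as the mean of both libraries, and stops at 100. *Cdh1*, *Cdh3*, *Cdh5*, *Cdh6* and *Cdh13* each have 1 dark row, whereas *Cdh2*, *Cdh4*, *Cdh11* and *Cdh20* spread over several.

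*Cdh1*, the cadherin of surface epithelia, was highest in surface epithelium-like cells, with 308 UMIs (219 CPM, 95% Poisson interval 195 to 245) in humWT and 143 UMIs (189.6 CPM, 159.8 to 223) in humdG. These 99 and 100 cells held 50.9% and 38.5% of all *Cdh1* UMIs, although they were 0.612% and 0.550% of the cells. The second class was the melanocyte-like cells, pigment cells of neural crest origin, at 43.9 CPM in humWT and 59.2 CPM in humdG. In the remaining 12 classes *Cdh1* was between 0 and 3.59 CPM, and the red blood cell-like cells had 2 UMIs in humWT and none in humdG, where 3 UMIs would be 2.68 CPM. RPE-like cells had 4 and 2 UMIs of *Cdh1*, so *Cdh1* above the red blood cell-like level was not detectable in this epithelium at this depth. The humdG to humWT ratio in surface epithelium-like cells was 0.865 (95% interval 0.705 to 1.06, counting error only).

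*Cdh3*, the cadherin next to *Cdh1* on the chromosome, was divided the other way between both epithelia. RPE-like cells held 2546 UMIs (659 CPM, 634 to 685) in humWT and 822 UMIs (345 CPM, 322 to 370) in humdG. Surface epithelium-like cells came second at 49.1 CPM in humWT and 49.0 CPM in humdG, and red blood cell-like cells had 20.9 and 2.68 CPM. The level in RPE-like cells was 13.4 times that of surface epithelium-like cells in humWT and 7.04 times in humdG. Next came cartilage-like cells at 22.03 and 8.17 CPM, close to the humWT red blood cell-like level. Melanocyte-like cells, which share pigment genes with the RPE, had 6 UMIs of *Cdh3* in humWT and 1 in humdG.

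The humdG to humWT ratio of *Cdh3* in RPE-like cells was 0.524 (0.484 to 0.567), or -0.93 on the log2 scale. In surface epithelium-like cells the log2 ratio was -0.00 (-0.62 to 0.60). Much of the RPE-like *Cdh3* signal came from few cells. A single humWT cell held 244 UMIs and a single humdG cell 86, and the 10 highest cells carried 30.3% and 46.6% of the class's *Cdh3* UMIs. With the highest cell of each library left out the log2 ratio remained -0.93.

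The *Cdh3* level also differed with the depth of the RPE-like cells. Cells with at least 10000 UMIs (102 in humWT and 67 in humdG) reached 929.6 CPM (892 to 969) and 465 CPM (431 to 501) of *Cdh3*, and 91.2% and 88.1% of them had a *Cdh3* UMI. The shallower cells had 189.96 CPM (168 to 214) and 142 CPM (119 to 169.6), and 35.6% and 23.5% of them had a UMI. *Cdh3* was thus lower in humdG in both depth ranges, by a larger ratio in the deep cells, and the intervals of the shallower cells overlapped slightly. Thinned to 1000 UMIs each, 20.6% (17.1 to 24.5) of humWT and 12.9% (9.69 to 16.7) of humdG RPE-like cells had a *Cdh3* UMI. Among red blood cell-like cells 2.17% of humWT cells and 0 of 245 humdG cells had one, where 3 cells would be 1.22%. Before thinning, a *Cdh3* UMI was found in 47.1% and 34.8% of the RPE-like cells (median depth 3469.5 and 2532 UMIs) and in 8.77% and 1.21% of those like red blood cells (median depth 4059 and 4195.5 UMIs).

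A small unnamed cluster of 74 humWT and 16 humdG cells, led by *Ankfn1*, *Otx2os1* and the pigment gene *Oca2*, had the highest *Cdh3* level of any cluster. It reached 1087 CPM (997 to 1182) in humWT and 983 CPM (785 to 1215) in humdG, and *Cdh3* was among its 10 leading genes. It met the naming rule of no class. Its log2 ratio was -0.15 (-0.49 to 0.19), and 85 UMIs stand behind the humdG value. With this cluster added to the RPE-like cells the log2 ratio was -0.95.

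**Figure D2:**
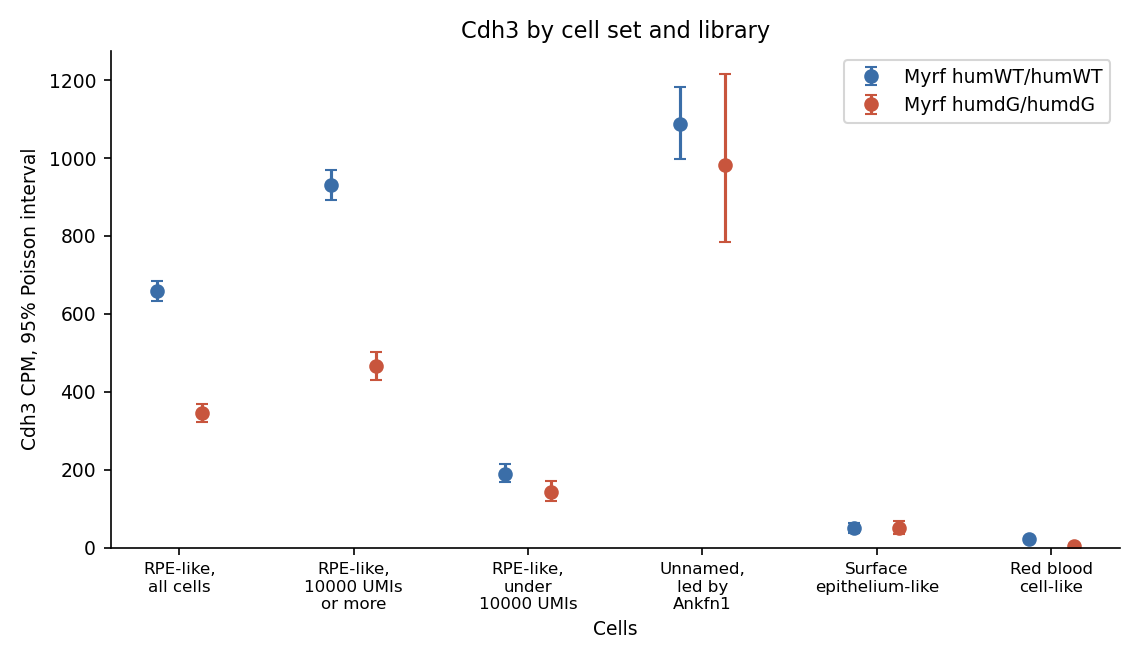
*Cdh3* level (CPM, linear axis) in 6 sets of cells of the humWT and humdG libraries, with 95% Poisson intervals. The deep RPE-like cells read 929.6 and 465 CPM, and the *Ankfn1*-led unnamed cells 1087 and 983 CPM with overlapping intervals.

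Most other members were near the red blood cell-like level in RPE-like cells. Their ratio to it ranged from 0.721 for *Cdh13* to 2.61 for *Cdh4* in humWT, and from 0.754 for *Cdh5* to 2.83 for *Cdh4* in humdG, leaving out *Cdh1*, whose humdG red blood cell-like value was 0. Of the 8 members that reached 20 UMIs in this class, 5 were at least 1.5-fold lower in humdG (*Cdh3*, *Cdh5*, *Cdh6*, *Cdh11*, *Cdh13*), where 12.4% of all 12283 genes with at least 20 UMIs were. Another 2 were at least 1.5-fold higher (*Cdh4* and *Cdh20*), where 7.72% of all genes were. The median log2 ratio over all these genes was -0.03. Among the 5 lower members, the interval of *Cdh6* crossed 0 (log2 ratio -0.72, -1.68 to 0.17).

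The same 5 members were lower in the red blood cell-like cells. There *Cdh3*, *Cdh5*, *Cdh6*, *Cdh11* and *Cdh13* were at least 1.5-fold lower in humdG, against 28.3% of all genes, and *Cdh2* and *Cdh20* at least 1.5-fold higher, against 13.7%. In that class the intervals of *Cdh5* (log2 ratio -1.23, -2.98 to 0.19) and *Cdh6* (-1.11, -2.86 to 0.33) crossed 0. *Cdh11* read 77.4 CPM in humWT and 47.5 CPM in humdG RPE-like cells, and 85.9 and 38.3 CPM in red blood cell-like cells. *Cdh5* read 13.99 and 3.36 CPM in RPE-like cells, and 10.5 and 4.46 CPM in red blood cell-like cells. *Cdh20* read 22.5 and 38.2 CPM in RPE-like cells, and 13.1 and 24.1 CPM in red blood cell-like cells. *Cdh2* read 92.5 and 134 CPM in RPE-like cells, and 45.8 and 76.7 CPM in red blood cell-like cells. Of the members, *Cdh3* alone therefore stood more than 3 times above the red blood cell-like level in RPE-like cells of both libraries. The summed level of 12 mesenchyme markers moved in the same direction, at 2888 and 1259 CPM in RPE-like cells and 3090.1 and 999.7 CPM in red blood cell-like cells, with none of the 12 at 0. The part that RNA from other cells has in the RPE-like values of these members was not tested. With the red blood cell-like level subtracted, 5 members could be measured. Of these, 1 (*Cdh3*, log2 ratio -0.90) was at least 1.5-fold lower and 2 (*Cdh4* and *Cdh6*) were at least 1.5-fold higher. *Cdh6* was thus lower before subtraction and higher after it. It read 10.4 and 6.30 CPM in RPE-like cells and 9.59 and 4.46 CPM in red blood cell-like cells, so little of it was left. *Cdh20* no longer reached 1.5-fold. The level subtracted was not corrected for the globin share of those cells, which differed between the libraries.

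**Figure D3:**
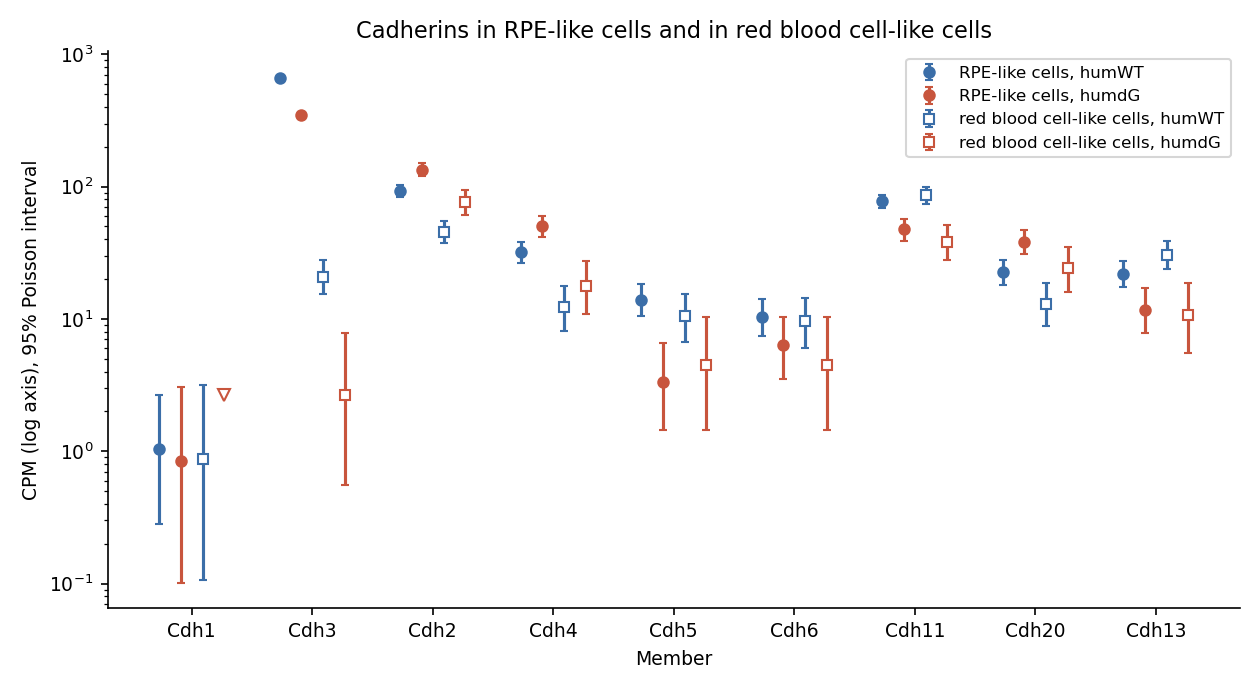
Level of each member in RPE-like cells (filled circles) and in red blood cell-like cells (open squares) in both libraries, as CPM on a log axis with 95% Poisson intervals; the open triangle marks 3 UMIs where none was counted. *Cdh3* stands at 659 and 345 CPM in RPE-like cells, and the other 8 members lie within 3-fold of their red blood cell-like values wherever these are above 0.

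*Cdh2*, the cadherin of neural tissue, was highest among the named classes in retinal progenitor-like cells, with 9032 UMIs (584 CPM, 572 to 597) in humWT and 15255 UMIs (577 CPM, 568 to 587) in humdG. Amacrine and horizontal-like cells followed at 402 and 401 CPM and neurogenic-like cells, which are leaving the cell cycle, at 258 and 254 CPM. Photoreceptor precursor-like cells were at 196 and 181 CPM and overlapped the cartilage-like cells at 200.4 and 164 CPM. The unnamed cluster of 258 humWT and 204 humdG cells led by *Nrxn3* and *Ntng2* had 424 CPM in humWT and, above every named class, 747 CPM in humdG (log2 ratio 0.82, 0.74 to 0.89). The order among the named retinal classes was the same in both libraries. At a clustering resolution of 1.0 the separate retinal ganglion cell-like class came second among the named classes, at 414 and 390 CPM. The amacrine and horizontal-like cells then had 278 and 313 CPM. The ratio of the libraries was 0.988 (0.963 to 1.01) in progenitor-like cells. The log2 ratio was 0.74 (0.32 to 1.17) among red blood cell-like cells, and it was also positive, with intervals above 0, in RPE-like, blood vessel-like, melanocyte-like, mesenchyme-like, muscle-like and white blood cell-like cells.

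*Cdh4*, first described in the retina, was shared by several retinal classes. Amacrine and horizontal-like cells had 241 CPM (225 to 257) in humWT and 142 CPM (133 to 151) in humdG, and retinal progenitor-like cells had 137 CPM (131 to 143) and 151 CPM (147 to 156). The amacrine and horizontal-like cells were thus first in humWT, and the humdG intervals of both classes overlapped. Neurogenic-like cells were at 97.5 and 111 CPM, and the unnamed *Nrxn3*-led cluster was at 183 and 412 CPM. In amacrine and horizontal-like cells the log2 ratio was -0.76 (-0.90 to -0.63), in a class where 14.4% of 13810 genes were at least 1.5-fold lower in humdG. This value depended on where the cluster ended. At a clustering resolution of 1.0 the amacrine and horizontal-like cells shrank to 206 humWT and 370 humdG cells with 73.5 and 78.3 CPM of *Cdh4* and a log2 ratio of 0.092, and a separate retinal ganglion cell-like class of 567 and 1288 cells had 277 and 145 CPM. The ganglion cell-like class was then the highest named class for *Cdh4*. In humdG, however, it stood at 144.8 CPM, close to the retinal progenitor-like cells at 144.3 CPM.

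*Cdh20*, a type II cadherin, is shown beside *Cdh2* because both led in the same named class. Among the named classes it was highest in retinal progenitor-like cells, with 6100 UMIs (395 CPM, 385 to 405) in humWT and 7850 UMIs (297 CPM, 291 to 304) in humdG. Neurogenic-like cells followed at 291 and 231 CPM, and the level was 66.9 and 57.8 CPM in amacrine and horizontal-like and 69.3 and 47.3 CPM in photoreceptor precursor-like cells. The unnamed *Nrxn3*-led cluster had 221 CPM in humWT and 492 CPM in humdG (log2 ratio 1.15, 1.05 to 1.26). For *Cdh2* the progenitor level was 1.45 times that of amacrine and horizontal-like cells in humWT and 1.44 times in humdG.

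Both progenitor clusters carried *Cdh20* at different levels. The cluster led by *Tafa1* and *Cntn6* had 482 CPM in humWT and 356 CPM in humdG, and the cluster led by replication-dependent histone genes had 310.4 and 240.2 CPM. *Cdh2* read 649 and 643 CPM in the first and 522 and 513 CPM in the second. The humdG to humWT ratio of *Cdh20* in the class was 0.753 (0.728 to 0.779), with log2 ratios of -0.44 (-0.50 to -0.38) and -0.37 (-0.45 to -0.29) in the 2 clusters. It did not reach 1.5-fold, a size at which 10.4% of 16054 genes were lower in humdG progenitor-like cells. The red blood cell-like level of *Cdh20* was higher in humdG, at 24.1 against 13.1 CPM. Among progenitor-like cells thinned to 1000 UMIs, *Cdh20* was found in 32.6% of humWT cells with and 32.1% of those without a *Cdh2* UMI, and in 30.4% (28.0 to 32.9) and 21.9% (19.9 to 24.0) of humdG cells.

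*Cdh5*, the VE-cadherin of endothelial junctions, had the largest share of its UMIs in 1 class among the members. Blood vessel-like cells held 6753 UMIs (843 CPM, 823 to 863) in humWT and 3039 UMIs (897 CPM, 866 to 930) in humdG, which was 87.5% and 84.0% of all *Cdh5* UMIs. In the other 13 classes *Cdh5* was at most 13.99 CPM in humWT (RPE-like cells) and 19.0 CPM in humdG (white blood cell-like cells), and red blood cell-like cells had 10.5 and 4.46 CPM. The ratio of the libraries in blood vessel-like cells was 1.06 (1.02 to 1.11). The class consisted of 2 clusters. The one led by *Flt1* and *Plvap* had 943 and 985 CPM at a log2 ratio of 0.06 (-0.00 to 0.13), and the shallower one led by *Cd93* and *Vwf* had 309 and 475 CPM at 0.62 (0.39 to 0.85). Among cells with at least 10000 UMIs 99.5% of humWT and 100% of humdG blood vessel-like cells had a *Cdh5* UMI.

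*Cdh6*, a type II cadherin of neural crest derivatives, was highest in the smallest class. The 49 humWT and 40 humdG neural crest and glia-like cells had 209 UMIs (233 CPM, 203 to 267) and 161 UMIs (251 CPM, 214 to 293). Cartilage-like cells followed at 37.8 and 40.3 CPM. Amacrine and horizontal-like cells were at 37.6 and 17.7 CPM and mesenchyme-like cells at 29.1 and 30.5 CPM. Red blood cell-like cells had 9.59 and 4.46 CPM. The amacrine and horizontal-like value depended on where the cluster ended. At the higher clustering resolution used for *Cdh4* above, that class had 2.70 and 3.30 CPM, below the red blood cell-like cells. The separate retinal ganglion cell-like class then had 50.1 and 20.8 CPM of *Cdh6*. Since the neural crest and glia-like class is small, it held 7.09% and 8.66% of the *Cdh6* UMIs, and 47.5% and 52.4% lay in unnamed clusters. The ratio of the libraries was 1.08 (0.870 to 1.33). Thinned to 1000 UMIs, 30.6% (18.3 to 45.4) of humWT and 12.5% (4.19 to 26.8) of humdG cells had a UMI, with wide intervals that overlapped.

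*Cdh11*, the cadherin of mesenchyme and bone-forming cells, was spread over several classes. Among the named classes it was highest in cartilage-like cells, with 409 CPM (389.8 to 428) in humWT and 556 CPM (521 to 593) in humdG, and next in mesenchyme-like cells with 371 CPM (363 to 379.6) and 332 CPM (322 to 344). Retinal progenitor-like cells followed at 226 and 209 CPM, above the red blood cell-like level of 85.9 and 38.3 CPM. A higher level stood outside the named classes. The unnamed cluster of 938 humWT and 573 humdG cells led by *Spp1*, *Mgp* and *Rgs5* had 899 CPM (884 to 914) and 739 CPM (723 to 756) of *Cdh11*. At a clustering resolution of 1.0 a pericyte-like class of 813 and 514 cells was named, with 927 and 754 CPM, and it was then the highest.

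The cartilage-like cells behind the *Cdh11* ratio of 1.36 (1.26 to 1.47) were 1222 in humWT and 116 in humdG. The 10 highest cells carried 16.9% of the class's *Cdh11* UMIs in humWT and 74.2% in humdG. In that class 40.0% of all 12334 genes were at least 1.5-fold higher in humdG. The median log2 ratio over all genes was 0.44, the same as that of *Cdh11*. In cartilage-like cells with at least 10000 UMIs (46 in humWT and 25 in humdG) the log2 ratio was -0.57. In mesenchyme-like cells the log2 ratio of *Cdh11* was -0.16 (-0.22 to -0.10), and in the unnamed *Spp1*-led cluster it was -0.28 (-0.32 to -0.24).

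*Cdh13* was highest in melanocyte-like cells, with 743 UMIs (424 CPM, 394 to 455) in humWT and 398 UMIs (428 CPM, 387 to 472) in humdG, a ratio of 1.01 (0.892 to 1.14). Photoreceptor precursor-like cells were at 169 and 100.1 CPM and blood vessel-like cells at 141 and 85.3 CPM, both above the red blood cell-like values of 30.5 and 10.7 CPM. They came next in humWT, whereas in humdG the cartilage-like cells, at 61.5 CPM in humWT and 127 CPM in humdG, were above both. In RPE-like cells *Cdh13* read 22.01 and 11.8 CPM, near the red blood cell-like level. The log2 ratio of *Cdh13* was -0.75 (-0.91 to -0.60) in photoreceptor precursor-like and -0.72 (-0.91 to -0.53) in blood vessel-like cells, where 10.8% and 10.2% of all genes were at least 1.5-fold lower in humdG. In red blood cell-like cells it was -1.51 (-2.53 to -0.62).

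**Figure D4:**
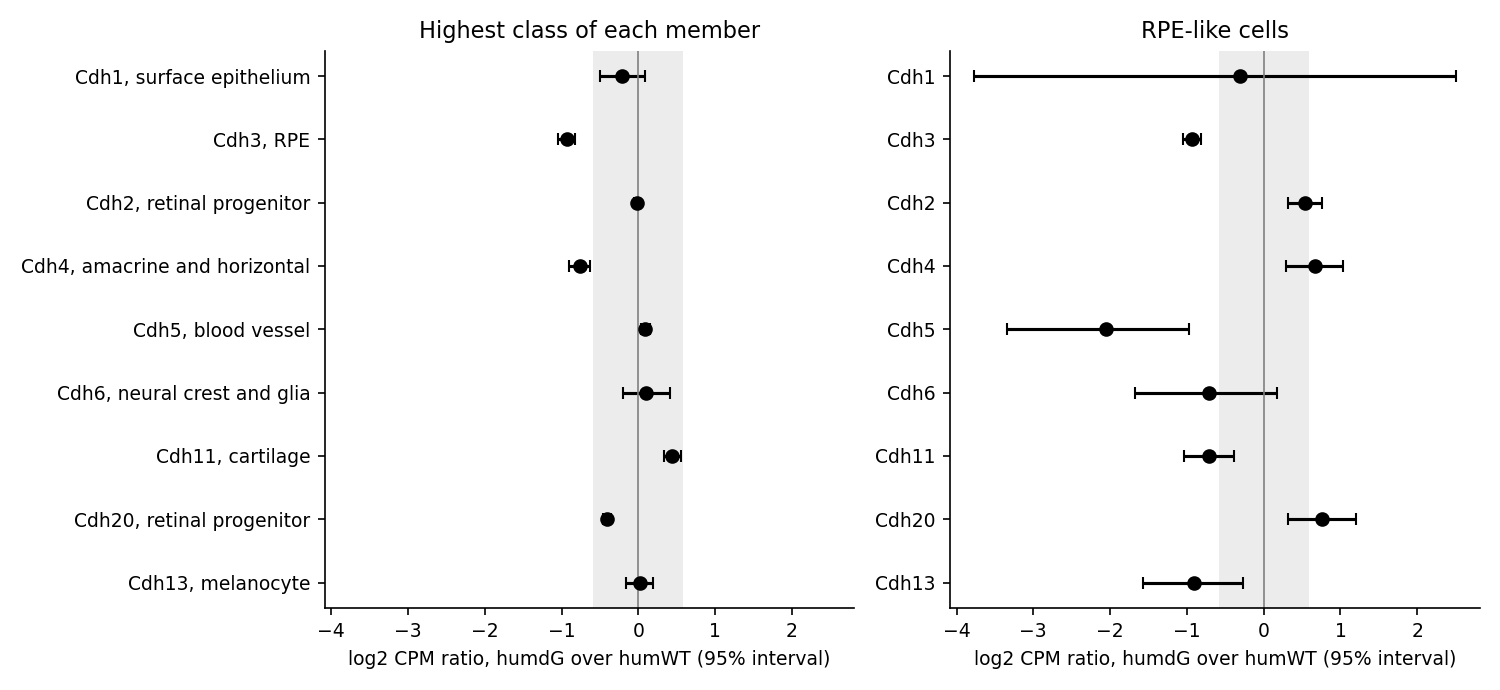
Ratio of each member between the libraries (log2 of humdG CPM over humWT CPM) in its highest class and in RPE-like cells, with exact 95% intervals for counting error; the grey band spans 1.5-fold in either direction. In the highest class *Cdh3* at -0.93 and *Cdh4* at -0.76 lie outside the band.

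Across the other classes the same members recurred on each side. Over all cells kept, *Cdh1*, *Cdh3*, *Cdh5*, *Cdh6*, *Cdh11* and *Cdh13* were lower in humdG, and *Cdh2*, *Cdh4* and *Cdh20* were higher. There *Cdh3* read 45.7 CPM in humWT and 17.2 CPM in humdG, and *Cdh20* 86.3 and 139.5 CPM. Cell make-up differed too, with muscle-like cells at 12.8% and 4.03% and retinal progenitor-like cells at 10.9% and 16.6%. The part that either has in the class ratios was not tested. *Cdh3* was at least 1.5-fold lower in humdG in 11 of the 14 classes, RPE-like and red blood cell-like cells included. It was below the UMI minimum in melanocyte-like (6 and 1 UMIs) and neural crest and glia-like cells (1 and 0 UMIs). *Cdh20* was at least 1.5-fold higher in 7 classes. How many of all genes recurred in as many classes was not counted. In retinal progenitor-like cells 4 of 9 measured members were lower (*Cdh1*, *Cdh3*, *Cdh5*, *Cdh6*; 10.4% of all genes) and 0 higher (5.18%). In neurogenic-like cells 3 of 8 were lower (*Cdh3*, *Cdh6*, *Cdh13*; 10.3%) and 0 higher (5.40%). In amacrine and horizontal-like cells 5 of 9 were lower (*Cdh1*, *Cdh3*, *Cdh4*, *Cdh6*, *Cdh13*; 14.4%) and 0 higher (6.68%). At a clustering resolution of 1.0 *Cdh3* and *Cdh13* were still lower in humdG in this class, and *Cdh4* (73.5 and 78.3 CPM) was not. *Cdh1* then had 5 UMIs in humWT and 5 in humdG, and *Cdh6* had 4 and 9. Both were below the UMI minimum for measured genes, so no direction is given for them in this class at that resolution. The separate retinal ganglion cell-like class then held 152 and 121 UMIs of *Cdh6* (50.1 and 20.8 CPM). In photoreceptor precursor-like cells 5 of 8 were lower (*Cdh3*, *Cdh5*, *Cdh6*, *Cdh11*, *Cdh13*; 10.8%), the members that were also lower in red blood cell-like cells, and 0 higher (6.48%).

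Outside the retina, 2 of 8 members were lower in blood vessel-like cells (*Cdh3*, *Cdh13*; 10.2%) and 2 higher (*Cdh2*, *Cdh20*; 6.37%). In mesenchyme-like cells 1 of 9 was lower (*Cdh3*; 7.33%) and 1 higher (*Cdh20*; 6.18%). In muscle-like cells 4 of 9 were lower (*Cdh1*, *Cdh3*, *Cdh5*, *Cdh11*; 9.80%) and 2 higher (*Cdh4*, *Cdh20*; 9.91%). In cartilage-like cells 1 of 8 was lower (*Cdh3*; 6.96%) and 3 higher (*Cdh4*, *Cdh13*, *Cdh20*; 40.0%). In white blood cell-like cells 4 of 8 were lower (*Cdh3*, *Cdh6*, *Cdh11*, *Cdh13*; 11.5%) and 3 higher (*Cdh2*, *Cdh4*, *Cdh5*; 10.5%). In melanocyte-like cells 1 of 6 was lower (*Cdh11*; 10.9%) and 3 higher (*Cdh2*, *Cdh4*, *Cdh20*; 10.1%). In neural crest and glia-like cells 2 of 6 were lower (*Cdh4*, *Cdh13*; 15.9%) and 0 higher (8.54%). In surface epithelium-like cells 1 of 7 was lower (*Cdh2*; 14.8%) and 0 higher (7.71%). Most of these values lay far under the member's highest class, and the part of RNA from other cells in them was not tested. Members were counted by size alone, and some intervals crossed 0. Among these were *Cdh1* in retinal progenitor-like, amacrine and horizontal-like and muscle-like cells and *Cdh5* in photoreceptor precursor-like cells.

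For each member the genes most like it in pattern were found by Pearson correlation of log2(CPM + 10) over the 14 classes in both libraries, which makes 28 points that share libraries and depth. These values are descriptions. *Cdh3* was closest to *Upk3b* (0.98), a uroplakin, *Clic6* (0.97), a chloride channel gene, and *Krt18* (0.96), a keratin of simple epithelia. *Cdh5* was closest to the endothelial genes *Adgrf5*, *Pecam1* and *Sox18* (0.99 each). *Cdh2* was closest to *Gm11149*, *Ncam1*, another neural adhesion molecule, and *E130114P18Rik* (0.91 each). *Cdh4* was closest to *Srgap3* (0.92), *Ank3* (0.91) and *Klhl7* (0.90), and *Cdh20* to *Cep126* (0.95), *Espn* (0.94) and *Katnal2* (0.93). *Cdh6* was closest to *Gm20754* (0.96) and *Nlgn3* (0.95), and *Cdh1* to *Gm30624*, *Gsta2* (0.96 each) and *Arhgap27os2* (0.95). The values were lower for *Cdh11*, with *Adamts19* (0.90), *Irs1* (0.89) and *Ror1* (0.87), and for *Cdh13*, with *Ttpa* (0.84), *Fam53b* (0.81) and *Akap1* (0.81), both members with several classes at middle levels.

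For comparison 13 other cadherins were listed, and 10 of them had at least 200 UMIs. For these and the gene lists that follow, the highest class is the named class with the highest mean CPM of both libraries. Unnamed clusters were left out of that ranking. *Cdh19* and *Cdh10* were highest in the neural crest and glia-like cells, the class of *Cdh6*, with 262 and 260.1 CPM for *Cdh19* and 179.6 and 209 CPM for *Cdh10*. *Cdh15* (M-cadherin of muscle) was highest in muscle-like cells at 53.1 and 63.6 CPM. *Cdh18* and *Cdh9* were highest in mesenchyme-like cells, with 331 and 244 CPM for *Cdh18* and 16.2 and 20.9 CPM for *Cdh9*, although in humdG *Cdh9* was higher in photoreceptor precursor-like cells at 23.5 CPM. *Cdh12* and *Cdh22* were highest in amacrine and horizontal-like cells, with 63.6 and 34.1 CPM for *Cdh12* and 55.6 and 48.2 CPM for *Cdh22*. *Cdh8* was highest in neurogenic-like cells at 15.7 and 25.6 CPM. *Cdh7* was highest in surface epithelium-like cells at 7.82 and 7.95 CPM and *Cdh24* in cartilage-like cells at 8.58 and 21.01 CPM. Amacrine and horizontal-like cells came next for both, at 4.15 and 4.55 CPM for *Cdh7* and 7.46 and 6.98 CPM for *Cdh24*. Intervals were not computed for these low levels. None of the 10 was highest in RPE-like cells. Of the 4 that reached 20 UMIs in the RPE-like class, 3 were at least 1.5-fold lower in humdG (12.4% of all genes). Their log2 ratios were -1.76 (-3.76 to -0.20) for *Cdh19*, -1.14 (-2.59 to 0.11) for *Cdh10* and -0.62 (-1.22 to -0.05) for *Cdh18*. *Cdh24* was at -0.40 (-1.94 to 0.98). Few UMIs stand behind the lowest ratios, 22 and 4 for *Cdh19* and 25 and 7 for *Cdh10* in RPE-like cells. *Cdh18* read 23.3 and 15.1 CPM there and 28.8 and 3.57 CPM in red blood cell-like cells.

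Most cytoplasmic partners of the cadherins lay within 1.5-fold between the libraries in RPE-like cells, as did most of all genes. All 14 listed catenins and partners reached 20 UMIs there, and 12 lay within that range. Of the others, 1 was at least 1.5-fold lower in humdG (12.4% of all genes) and 1 higher (7.72%). The median log2 ratio of the 14 was -0.20, against -0.03 over all genes. *Ctnnb1*, which encodes β-catenin, read 345 and 308 CPM (-0.17, -0.30 to -0.04), *Ctnna1* (αE-catenin) 233 and 199.6 CPM, and *Ctnnd1* (p120 catenin) 72.0 and 53.4 CPM. *Ctnna2* (αN-catenin, 0.70) and *Ctnnd2* (δ-catenin, 0.53), both neural forms, had the 2 highest ratios, and *Ctnna3* (-0.93) and *Ptpn14* (-0.55) the 2 lowest. *Ctnna2* and *Ctnnd2* were highest in amacrine and horizontal-like cells and were also higher in humdG red blood cell-like cells, at 58.0 against 27.0 CPM and 68.7 against 37.9 CPM. Of the nectins, adhesion molecules that join cadherins at adherens junctions, *Nectin3* was highest in RPE-like cells, at 193 CPM in humWT and 208 CPM in humdG. The 3 measured nectins all lay within 1.5-fold, as did most of all genes.

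Of 16 desmosome and tight junction genes, 12 were highest in surface epithelium-like cells, the class of *Cdh1*, among them *Dsp* (desmoplakin) at 630.2 and 769 CPM. *Cldn1*, a claudin, was highest in RPE-like cells at 78.7 and 66.0 CPM. Of 8 measured in RPE-like cells, 2 were at least 1.5-fold lower in humdG (12.4% of all genes), *Ocln* (-0.90, -1.58 to -0.27) and *Dsg2* (-0.83, -2.20 to 0.39), and 1 was higher (7.72%), *Dsp* (1.21, 0.63 to 1.79); *Pkp2* had the second highest ratio at 0.38, and the median was -0.28.

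Regulators of the epithelial and the mesenchymal state were also listed, 12 in all. All 6 epithelial regulators in the list (*Grhl2*, *Grhl3*, *Ovol1*, *Ovol2*, *Esrp1*, *Esrp2*) were highest in surface epithelium-like cells, with 115 and 121 CPM for *Grhl2* and 139 and 125 CPM for *Esrp1*. In RPE-like cells these 6 had between 0 and 6 UMIs per library. *Zeb1*, a repressor of *Cdh1*, was highest in mesenchyme-like cells at 366 and 297 CPM, and *Zeb2* in neural crest and glia-like cells at 857 and 994 CPM. *Snai1*, *Snai2*, *Twist1* and *Twist2* were highest in cartilage-like cells by the mean of both libraries, but mesenchyme-like cells were higher for *Twist1* in humWT (102.2 against 96.5 CPM) and for *Twist2* in humdG (26.4 against 20.4 CPM). Of the 5 regulators measured in RPE-like cells, 3 were at least 1.5-fold lower in humdG (12.4% of all genes). *Snai2* (-2.69) and *Twist1* (-2.00) had the lowest log2 ratios, at 5.44 and 0.84 CPM and at 16.8 and 4.20 CPM, and both were also lower in humdG red blood cell-like cells (9.59 and 2.68 CPM for *Snai2*, 21.8 and 2.68 CPM for *Twist1*). *Zeb2* (-0.24) and *Zeb1* (-0.56) had the highest.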

How the data were processed

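The 2 libraries were made with the 10x Genomics 3′ kit. The authors deposited raw counts of UMIs for every gene in every barcode, made with Cell Ranger 7.1.0 against mm10 (GRCm38), per the file headers and the submitters' processing notes, which also list Seurat 4.1.1. Whether intronic reads were counted is not given in the sources used here. The matrices hold 17421 humWT and 19565 humdG barcodes with 129135207 and 114319529 UMIs, more cells than the study's text gives, and the study's stated filter of more than 200 genes and under 15% mitochondrial UMIs leaves 17142 and 19302. Here more than 500 genes were required, as in the study's deposited code. Scrublet (scanpy 1.11.5) marked 1 cell or none per library, so it had not worked, and in its place the top-scoring 5% of cells were left out. Cells were integrated and clustered with Seurat 5.3.0 in R 4.3.3 (2000 variable genes without the members, 20 dimensions, resolution 0.5).

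A cluster was named when at least 3 markers of a class were raised 2-fold or more (10 CPM added) in at least 10% of its cells, with 1 among its 20 leading genes; names may differ from the study's, which clustered these cells together with libraries not analysed here. UMIs were summed per class and library and divided by the class total (CPM). Intervals are exact 95% intervals (Poisson for levels, Clopper-Pearson for shares, conditional binomial for ratios) and cover counting error only. The ratio intervals alone were tried on counts simulated for RPE-like cells, without any spread between cells. That trial cannot show how they behave where few cells hold many of the UMIs. With 1 library per genotype no test was run, and a size of 1.5-fold among genes with at least 20 UMIs stands in place of one. All 9 members are named. For each, the 3 most similar genes among those with at least 200 UMIs are named, and for each comparison list the 2 highest and 2 lowest ratios in RPE-like cells. For *Cdh6* 1 of the similar genes is not reported here. Other list genes are given for their role or highest class and were chosen after their values were seen. The members and lists were chosen with earlier results of these data known. The study already lists *Cdh3*, together with *Upk3b*, among genes lower in the RPE of humdG and of conditional knockout mice. Its humdG values come from the same libraries, so the lower *Cdh3* given here is not an independent result. Alternatives were other gene, mitochondrial and doublet filters, merging without integration, resolution 1.0, members among the variable genes, the mean over single cells, subtraction of the red blood cell-like level, leaving out the highest cell, thinning to 1000 UMIs and RPE cells taken as those with 3 of 7 RPE and pigment markers and no *Pax3*.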

Additional observations from a re-analysis of the deposited data

Results flagged for a closer look

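*Cdh4* and *Cdh13* lay beyond 1.5-fold in opposite directions in different classes, at levels at least 3 times that of red blood cell-like cells in at least 1 of the libraries and with counting intervals on 1 side of 0; the difference between the classes was not tested. The log2 ratio of *Cdh4* (humdG over humWT) was 1.56 in cartilage-like cells, -0.76 in amacrine and horizontal-like cells and -0.93 in neural crest and glia-like cells. The log2 ratio of *Cdh13* was 1.04 in cartilage-like cells, -0.72 in blood vessel-like cells and -0.75 in photoreceptor precursor-like cells. In cartilage-like cells the median log2 ratio over all genes was 0.44, and 1222 humWT and 116 humdG cells stand behind the values. Of these, 46 humWT and 25 humdG cells had at least 10000 UMIs. The part that cell depth has in these ratios was not tested. In the unnamed cluster led by *Nrxn3* and *Ntng2* *Cdh4* read 183 CPM in humWT and 412 CPM in humdG.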

How the results depend on the processing

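*Cdh3* was lower in humdG RPE-like cells under all 13 alternatives, with log2 ratios from -0.998 to -0.50. It was -0.69 after thinning to 1000 UMIs and -0.50 with RPE cells taken by 3 of 7 markers. That set held 2469 humWT and 978 humdG cells, in which *Cdh3* read 160.3 and 114 CPM. Every other member read higher in it than in the RPE-like cluster. *Cdh2* read 213 and 425 CPM against 92.5 and 134 CPM, and *Cdh11* 275 and 224 CPM against 77.4 and 47.5 CPM. The share of other cell types in this set was not tested. The number of members at least 1.5-fold lower in RPE-like cells, 5 as reported, was 3 after thinning, 1 with the marker choice and 1 of 5 measured after subtraction of the red blood cell-like level. With the marker choice that member was *Cdh5* (55.9 and 26.1 CPM), and *Cdh3* did not reach 1.5-fold. After subtraction it was *Cdh3*. The number at least 1.5-fold higher, 2 as reported, was 0 with the *Ankfn1*-led cluster added and 0 in cells with at least 10000 UMIs, both chosen after seeing the data. The highest class was the same for 9 members under 9 of 10 alternatives and for 7 at resolution 1.0, where *Cdh4* and *Cdh11* changed. Of the ratios whose interval lay on 1 side of 0, those that reversed were that of *Cdh4* in amacrine and horizontal-like cells at resolution 1.0 (0.092) and that of *Cdh11* in cartilage-like cells with at least 10000 UMIs (-0.57); the cause was not tested. That of *Cdh6* in neural crest and glia-like cells, 0.11 with an interval across 0, was -1.56 after thinning, and those of *Cdh2* and *Cdh13*, also with intervals across 0, took either sign. No paired analysis was possible because each genotype is 1 library. Low UMI counts limit *Cdh1* outside surface epithelium and *Cdh6* in its 49 and 40 neural crest and glia-like cells.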
